A study of Homo sapiens with 8 samples.

Results

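The genes described here are 10 targets of the hypoxia-inducible factors (HIF) that lie outside glycolysis: CA9, BNIP3, NDRG1, EGLN3, VEGFA, ANKRD37, KDM3A, P4HA1, PPFIA4 and MIR210HG. They were chosen by symbol, partly because PPFIA4 and MIR210HG were among the genes lowest in the cells treated with doxycycline (Dox) relative to cells without it, and they are 10 of the 21257 symbols that both count tables hold. Their values in the Dox comparison are therefore given as a description, with no test. The rule of the choice did not use the comparison of TFAP2C KD with control siRNA, which was tested. Earlier results of these data were known when the genes were chosen.

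mRNA was sequenced from 8 libraries of HCT116, a human colorectal cancer cell line. Per the labels, all of the cells stably carried a Tet-On shRNA against SAE2, also called UBA2, which is the catalytic subunit of the enzyme that activates SUMO. One experiment compared 2 libraries of control siRNA with 2 of TFAP2C KD, an siRNA against a transcription factor of the AP-2 family, after 48 hrs. The other compared 2 control (no Dox) libraries, labelled as vehicle (DMSO), with 2 libraries labelled UBA2 KD, treated with Dox at 1 μg/mL, both for 5 days. No group received Dox without the shRNA, so effects of Dox and of the shRNA cannot be told apart. Nothing states that the 2 replicates of a group were separate cultures, so p-values measure only the spread between these libraries. The labels name no exposure to hypoxia.

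HIF is a dimer of an oxygen-labile alpha subunit (HIF1A or EPAS1) and ARNT. When oxygen is present, prolyl hydroxylases of the EGLN family mark the alpha subunit, VHL binds the marked protein, and it is degraded. When oxygen is scarce the dimer accumulates, binds hypoxia response elements, and induces genes for pH control, mitophagy, angiogenesis, collagen modification and glycolysis, together with EGLN3, which feeds back on the pathway. In colorectal tumours these genes are known as marks of poorly oxygenated regions, and HIF alpha subunits are known substrates of SUMO.

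Total counts were 20785035 to 24465109 per library in the TFAP2C experiment and 18213739 to 20607813 in the Dox experiment. TFAP2C, the target of the siRNA, fell from 19.7 ± 1.13 to 3.88 ± 0.591 CPM (counts scaled to library size, SD, n = 2), with an adjusted p of 7.67e-06 in edgeR's quasi-likelihood test. UBA2 was at 154 ± 10.8 CPM without Dox and 150 ± 4.39 CPM in the libraries labelled UBA2 KD (n = 2, edgeR's quasi-likelihood test, adjusted p = 0.766), so its mRNA does not check that label. Of 10 markers of colorectal epithelium, EPCAM and the keratins were abundant, whereas VIL1, CDX1 and CDH17 had under 10 counts in every library. Of 8 markers of immune, endothelial and stromal cells, DCN and LUM were at 0 in all libraries, and the summed level of the list was 15.3 to 23.0 CPM in the Dox experiment and 45.2 to 49.7 CPM in the siRNA experiment. Most of these sums was the stromal marker COL1A1, at 14.9 to 21.8 CPM and 43.2 to 47.5 CPM. The epithelial list summed to 2288 and 2306 CPM without Dox and to 2669 and 2575 CPM with it, and the part of this shift in the results was not tested.

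Promoters are shown for PPFIA4 and MIR210HG, the members lowest with Dox, for ANKRD37, and for CA9, which had too few reads to be fitted with Dox. Each runs from 250 bases before to 50 after a RefSeq start (GRCh38.p14), 5′ to 3′ on the strand of the gene. Capitals mark ACGTG or GCGTG, the core letters of a hypoxia response element, read on either strand.
PPFIA4 (chr1:203026241-203026540, plus strand): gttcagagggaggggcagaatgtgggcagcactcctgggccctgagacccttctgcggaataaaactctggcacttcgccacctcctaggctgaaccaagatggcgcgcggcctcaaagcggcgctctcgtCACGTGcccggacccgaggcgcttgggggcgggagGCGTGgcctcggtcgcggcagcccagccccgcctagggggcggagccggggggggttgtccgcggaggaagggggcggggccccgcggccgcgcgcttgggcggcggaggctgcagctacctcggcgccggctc
MIR210HG (chr11:568408-568707, minus strand): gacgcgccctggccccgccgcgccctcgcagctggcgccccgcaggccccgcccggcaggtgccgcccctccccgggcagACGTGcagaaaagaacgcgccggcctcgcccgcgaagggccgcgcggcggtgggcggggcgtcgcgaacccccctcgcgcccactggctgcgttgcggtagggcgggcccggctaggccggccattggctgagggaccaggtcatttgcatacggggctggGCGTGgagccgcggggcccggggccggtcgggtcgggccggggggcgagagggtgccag
ANKRD37 (chr4:185396591-185396890, plus strand): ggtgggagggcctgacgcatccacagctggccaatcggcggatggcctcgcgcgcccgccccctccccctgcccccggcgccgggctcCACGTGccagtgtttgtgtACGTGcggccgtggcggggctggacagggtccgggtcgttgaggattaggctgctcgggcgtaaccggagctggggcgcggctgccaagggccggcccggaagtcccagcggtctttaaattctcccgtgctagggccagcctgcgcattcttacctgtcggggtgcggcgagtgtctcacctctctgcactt
CA9 (chr9:35673678-35673977, plus strand): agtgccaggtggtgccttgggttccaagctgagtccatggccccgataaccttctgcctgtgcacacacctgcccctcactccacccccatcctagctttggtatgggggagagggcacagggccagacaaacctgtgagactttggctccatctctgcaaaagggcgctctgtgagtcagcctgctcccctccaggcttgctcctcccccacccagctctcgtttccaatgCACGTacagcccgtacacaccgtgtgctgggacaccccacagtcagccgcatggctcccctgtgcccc

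In PPFIA4, a palindrome gave overlapping matches on both strands at 119 and 118 bases before the start, and another match lay at 84. The same palindrome was at 162 and 161 bases before the start of ANKRD37, which had a further match at 143. MIR210HG held a match at 170 and another at 9 bases before its start, and CA9 held 1, on the minus strand, at 18. BNIP3 had the most, 6 matches between 143 and 104 bases before its start, of which 1 pair overlapped. P4HA1 held 1 match at 86 bases, and KDM3A held the same match in the windows of both of its listed starts. In the window of EGLN3 these letters were not found. In all, 8 members had a promoter entry and 7 held a match, where 48.4% of 35116 RefSeq promoters of this length did. These are matches of letters and not mapped binding sites.

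MIR210HG, a long non-coding RNA, is the host gene of microRNA 210, a microRNA known to be induced by HIF. The mature microRNA was not measured, and the MIR210 row held 0 to 2 counts per library. Its mature sequence is shown because it lies within MIR210HG, with its seed in capitals (RefSeq, GRCh38.p14, chr11:568112-568133, minus strand).
hsa-miR-210-3p: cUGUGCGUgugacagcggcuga

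The members covered a wide range of levels in untreated cells. Levels are given in RPKM (counts scaled to library size and to the length of the gene model) so that genes can be set side by side, and they are compared only within a table because the gene models of the tables differ. Without Dox, NDRG1, a stress-responsive cytoplasmic protein, was the highest at 40.9 ± 3.28 RPKM (SD, n = 2). P4HA1, a catalytic subunit of collagen prolyl hydroxylase, followed at 21.4 ± 0.508 RPKM, KDM3A at 18.1 ± 0.486 RPKM, VEGFA at 16.9 ± 0.339 RPKM and BNIP3 at 10.0 ± 1.03 RPKM. The libraries of these neighbours in the order did not overlap. ANKRD37 at 2.37 ± 0.549 RPKM, EGLN3 at 2.31 ± 0.151 RPKM and MIR210HG at 2.20 ± 0.138 RPKM overlapped with their neighbours. PPFIA4 was at 1.31 ± 0.165 RPKM and CA9 was last at 0.230 ± 0.0177 RPKM. With control siRNA the ends of the order were the same genes, with NDRG1 at 46.2 ± 6.38 RPKM and P4HA1 at 41.6 ± 2.05 RPKM, which overlapped, and CA9 at 0.791 ± 0.283 RPKM. PPFIA4 at 2.26 ± 0.0552 RPKM lay above EGLN3 at 1.66 ± 0.182 RPKM there, and their libraries did not overlap. The model of EGLN3 was 7.34 kb long in the siRNA experiment and 2.72 kb in the Dox experiment, so this order is not read as a change of level. In mean CPM, which is not scaled to gene length, PPFIA4 lay above EGLN3 in both experiments. The values were 21.9 against 12.2 with control siRNA and 11.1 against 6.28 without Dox. The model of PPFIA4 was the longer in both experiments, so the order in CPM does not compare levels per length.

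**Figure D1:**
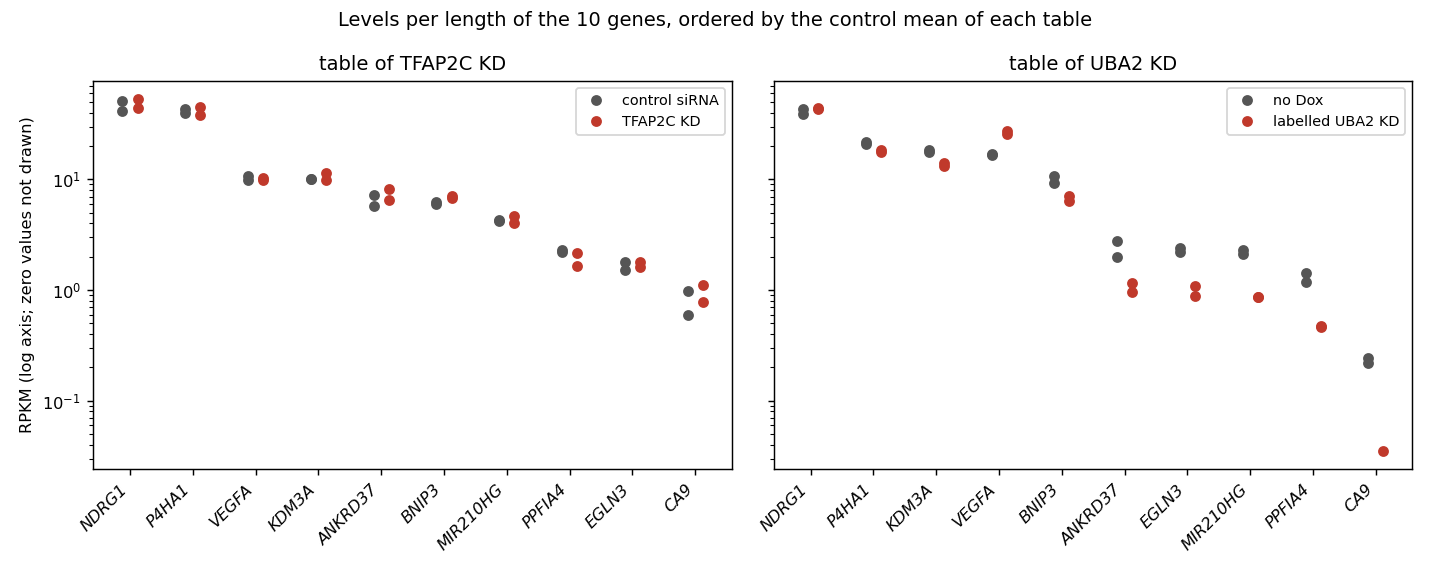
Levels of the 10 genes in RPKM on a log axis in the control (grey) and treated (red) libraries of each table, with a point per library and the genes ordered by the control mean. A library of CA9 at 0 is not drawn. NDRG1 is at the top of both tables and CA9 at the bottom, and neighbouring genes such as ANKRD37, EGLN3 and MIR210HG overlap without Dox.

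With Dox, 7 of the 9 members that could be fitted were lower in both libraries than in either control, and 2 were higher in both. Among all 13381 genes tested, groups did not overlap in the lower direction for 25.8% and in the higher direction for 25.5%. The choice of members used this comparison, so nothing is read from the counts. The median log2 fold change of the 9 was -0.57, where that of all genes was -0.00042. The values ran from PPFIA4 at -1.49 to VEGFA at 0.67.

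PPFIA4 encodes liprin-alpha-4, a scaffold protein of a family known from synapses. It was at 10.1 and 12.1 CPM without Dox and at 4.0 and 3.92 CPM in the libraries labelled UBA2 KD. Its log2 fold change of -1.49 (SE 0.15) was the 8th lowest of 13381. MIR210HG was at 5.29 and 4.84 CPM without Dox and at 2.0 and 1.99 CPM with it. This is a log2 fold change of -1.34 (SE 0.20), the 14th lowest. In both genes the Dox libraries lay close together and well under both controls.

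**Figure D2:**
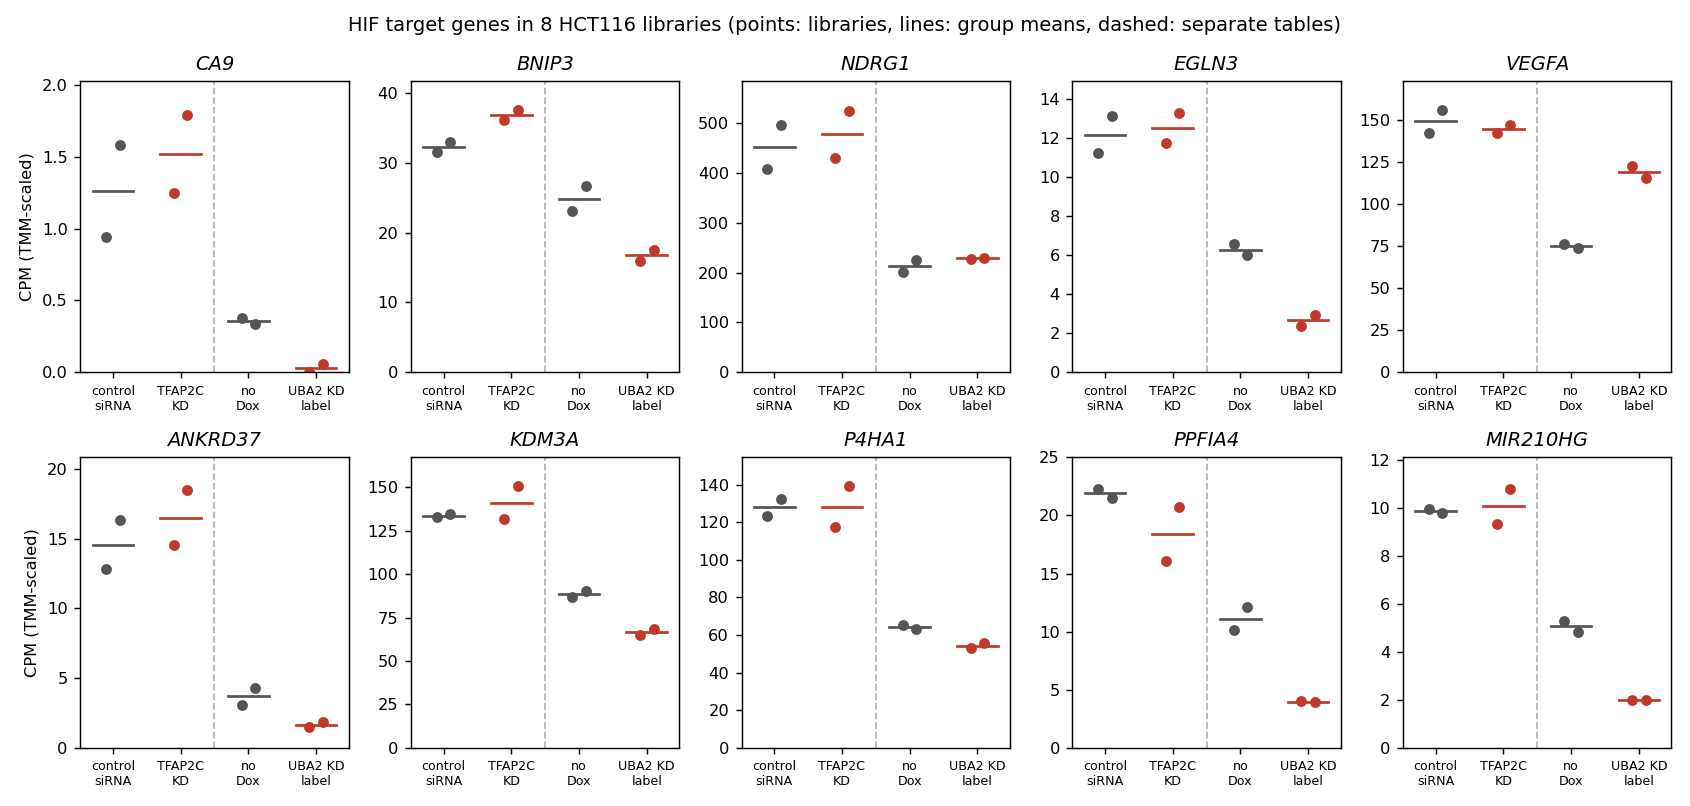
CPM of each of the 10 genes in each of the 8 libraries, with a point per library, a bar for the group mean and a panel per gene with its own axis. The libraries labelled UBA2 KD lie under their controls in 8 panels and over them for VEGFA and NDRG1, whereas the groups of the siRNA experiment overlap except for BNIP3 and PPFIA4.

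Of the members that use oxygen as a substrate, EGLN3, the HIF prolyl hydroxylase that HIF itself induces, was at 6.57 and 5.99 CPM without Dox and at 2.39 and 2.95 CPM with it. Its log2 fold change was -1.23 (SE 0.18), the 25th lowest. KDM3A, a histone demethylase, was at 86.9 and 90.3 CPM without Dox and at 65.1 and 68.2 CPM with it, with a log2 fold change of -0.41 (SE 0.061). P4HA1 was at 65.1 and 63.0 CPM without Dox and at 53.0 and 55.6 CPM with it, with a log2 fold change of -0.24 (SE 0.065). These 3 genes were lower in every Dox library than in every control, by unequal amounts.

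CA9, a carbonic anhydrase at the cell surface that controls pH, had few reads. It had 7 counts in each library without Dox, and 0 and 1 counts in the libraries labelled UBA2 KD, so it was left out of the fit. Scaled by library size, the ratio of 1 count to 14 was 0.0772, with a 95% interval from 0.00183 to 0.507 that covers counting error only. ARHGEF39, which overlaps CA9 on the opposite strand, had 557 to 776 counts in these libraries. The strand setting of the counting is not given in the sources used here, so reads of the pair cannot be told apart.

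BNIP3, a receptor on the outer mitochondrial membrane that marks mitochondria for mitophagy, was at 23.0 and 26.6 CPM without Dox and at 15.9 and 17.6 CPM with it. The log2 fold change was -0.57 (SE 0.096). ANKRD37, a small ankyrin repeat protein, was at 3.10 and 4.31 CPM without Dox and at 1.5 and 1.83 CPM with it, with a log2 fold change of -1.16 (SE 0.23), the 32nd lowest. Both genes were lower in each Dox library, and the controls of ANKRD37 were the more spread. ANKRD37 overlaps UFSP2 on the opposite strand, which had 500 to 671 counts.

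VEGFA, the secreted ligand that drives angiogenesis, had the highest log2 fold change of the members. It was at 76.1 and 74.0 CPM without Dox and at 123 and 115 CPM in the libraries labelled UBA2 KD. Its log2 fold change was 0.67 (SE 0.059). NDRG1 was at 201 and 225 CPM without Dox and at 227 and 230 CPM with it, with a log2 fold change of 0.10 (SE 0.053). The NDRG1 groups did not overlap, but its higher control lay within a few CPM of the Dox libraries.

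**Figure D3:**
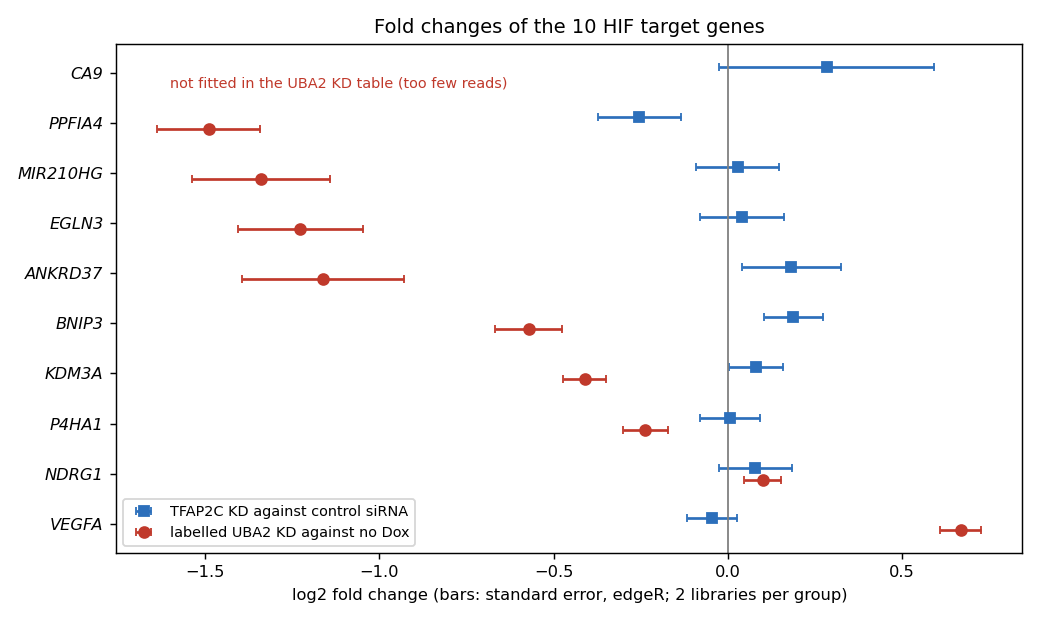
Log2 fold changes of the 10 genes with standard errors from edgeR, for TFAP2C KD against control siRNA in blue squares and for the libraries labelled UBA2 KD against no Dox in red circles. The red values run from -1.49 for PPFIA4 to 0.67 for VEGFA, CA9 has none, and the blue values lie between -0.25 and 0.28.

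The rule that chose the genes did not use TFAP2C KD, though earlier results of these data were known. In TFAP2C KD, 0 of the 10 members passed an adjusted p of 0.05 in edgeR's quasi-likelihood test, where 0.74% of all 14991 genes did. The Wald test of DESeq2 also called 0. In edgeR's test 1 member, BNIP3, had an unadjusted p under 0.05, as had 1889 of the 14991 genes. The median log2 fold change of the members was 0.060, where that of all genes was -0.0038. In 8 members the value was above 0 and in 2 it was below. This direction was set by single libraries, since the median was -0.055 with 7 members below 0 without TFAP2C KD replicate 2, -0.050 with 6 below 0 without control siRNA replicate 1, and 0.15 without TFAP2C KD replicate 1. The groups did not overlap for BNIP3 and PPFIA4, 2 of 10, where 44.7% of all genes had groups that did not overlap.

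BNIP3 was at 31.6 and 33.0 CPM with control siRNA and at 36.1 and 37.5 CPM in TFAP2C KD, with a log2 fold change of 0.19 (SE 0.084, adjusted p = 0.379). Its 95% interval, not adjusted for the number of genes tested, ran from 0.0060 to 0.37. PPFIA4 was at 22.3 and 21.5 CPM with control siRNA and at 16.1 and 20.8 CPM in TFAP2C KD, with a log2 fold change of -0.25 (SE 0.12, adjusted p = 0.406). Its 95% interval ran from -0.51 to 0.0071, and the TFAP2C KD libraries of PPFIA4 were further apart than its controls. MIR210HG was at 9.93 and 9.78 CPM with control siRNA and at 9.34 and 10.8 CPM in TFAP2C KD. The log2 fold change of MIR210HG was 0.028, with an interval from -0.23 to 0.29 and an adjusted p of 0.946.

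EGLN3 was at 11.2 and 13.1 CPM with control siRNA and at 11.8 and 13.3 CPM in TFAP2C KD, and the interval of its log2 fold change ran from -0.22 to 0.30. In the table of this experiment the model of EGLN3 spans SPTSSA on the same strand, which had 492 to 557 counts. ANKRD37 was at 12.8 and 16.3 CPM against 14.5 and 18.5 CPM, with an interval from -0.13 to 0.49. The controls and knockdown libraries of both genes were interleaved.

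CA9 was at 0.944 and 1.58 CPM with control siRNA and at 1.25 and 1.79 CPM in TFAP2C KD, with an interval from -0.39 to 0.95, the widest of the members. ARHGEF39 had 435 to 546 counts in these libraries. For the 4 remaining members the log2 fold change was at most 0.080, and their libraries overlapped. KDM3A was at 133 and 134 CPM against 131 and 151 CPM, with an interval from -0.089 to 0.25, and P4HA1 was at 123 and 132 CPM against 118 and 139 CPM, with an interval from -0.18 to 0.19. VEGFA was at 143 and 156 CPM against 142 and 147 CPM, with an interval from -0.20 to 0.11, and NDRG1 was at 408 and 497 CPM against 430 and 526 CPM, with an interval from -0.15 to 0.31. The intervals limit how large a change could be, and none shows that a gene did not change.

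The calls of this comparison depended on the TFAP2C KD libraries, which differed from each other by 9.09 times the variance of counting, where the replicates of the other groups differed by 2.55 to 2.76 times. Without TFAP2C KD replicate 1, 2 members were called, NDRG1 with a log2 fold change of 0.22 and ANKRD37 with 0.35, where 3.49% of all genes were called. Without TFAP2C KD replicate 2, PPFIA4 was called, with a log2 fold change of -0.45, where 18.2% of all genes were called. In these fits the lone library is assumed to vary like the control libraries.

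The mRNAs of HIF and of the proteins that control it were measured in the same libraries, as a list of 18 pathway components. The proteins themselves were not measured. This list and those below were chosen with earlier results of these data known, so their counts are a description. With Dox, 3 of the 17 tested rose and 2 fell at an adjusted p of 0.05, where 5.52% and 4.47% of all genes did. HIF1A was at 296 and 269 CPM without Dox and at 274 and 294 CPM with it, with a log2 fold change of 0.011 (SE 0.051, adjusted p = 0.929). Its partner ARNT had a log2 fold change of -0.085 (adjusted p = 0.484) and VHL had 0.096 (adjusted p = 0.340). EPAS1, the other alpha subunit, rose from 65.2 and 64.4 to 76.0 and 75.2 CPM (adjusted p = 0.0156).

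Of the hydroxylases, EGLN1 fell from 131 and 119 to 101 and 109 CPM (adjusted p = 0.00366), which was the same direction as EGLN3. EGLN2 was under 1 CPM in these libraries and HIF1AN had a log2 fold change of -0.044 (adjusted p = 0.681). SIAH2, a ubiquitin ligase that acts on EGLN proteins, rose from 50.8 and 50.3 to 60.5 and 63.9 CPM (adjusted p = 0.00201), SIAH1 rose with a log2 fold change of 0.26 (adjusted p = 0.0312), and RBX1, a subunit of the VHL ligase, fell with one of -0.34 (adjusted p = 0.0211). The calls of EPAS1, SIAH1, RBX1 and EGLN1 were lost in 5, 7, 4 and 1 of 12 fits. In TFAP2C KD, 0 of the 18 components were called in edgeR's quasi-likelihood test, and 1 had an unadjusted p under 0.05, as had 1889 of all 14991 genes. HIF1A was at 219 and 222 CPM against 186 and 235 CPM there (adjusted p = 0.801). EPAS1, ARNT, VHL, EGLN1, EGLN2 and HIF1AN had log2 fold changes of 0.077, 0.027, -0.050, 0.14, -0.079 and -0.15.

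A list of 36 further HIF targets outside glycolysis shared no gene with the members. With Dox, 12 of the 33 tested fell and 3 rose at an adjusted p of 0.05, where 4.47% and 5.52% of all genes did. The median log2 fold change of the 33 was -0.25. ANGPTL4, a secreted regulator of lipoprotein lipase, fell from 10.2 and 8.91 to 3.72 and 4.08 CPM, with a log2 fold change of -1.28 (SE 0.15, adjusted p = 1.23e-07). CA12, a carbonic anhydrase and paralog of CA9, fell from 4.38 and 4.22 to 2.39 and 2.69 CPM (adjusted p = 0.00875), a call lost in 1 of 11 fits. In the same direction as BNIP3, its paralog BNIP3L fell from 71.2 and 76.9 to 48.3 and 54.1 CPM (adjusted p = 6.59e-07). The Wald test of DESeq2 called 6 lower and 3 higher of this list, where it called 4.97% of all genes in either direction.

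Among the genes of that list that rose were DDIT4 and STC2. DDIT4, an inhibitor of mTOR signalling, rose from 108 and 106 to 244 and 224 CPM (log2 fold change 1.13, adjusted p = 3.22e-16). STC2, a secreted glycoprotein, rose from 99.9 and 97.5 to 203 and 181 CPM (adjusted p = 6.06e-14). DDIT4 and STC2, like VEGFA, are known also to be induced through ATF4, the transcription factor of the amino acid and stress response. Of 12 ATF4 targets, a list also chosen with earlier results known, 11 rose with Dox and the other did not pass the test. Of all genes, 5.52% rose. The median log2 fold change of the 12 was 0.91. CHAC1 rose from 8.12 and 9.54 to 39.4 and 33.2 CPM (adjusted p = 1.32e-15) and TRIB3 from 82.7 and 80.3 to 219 and 195 CPM (adjusted p = 5.46e-17). ATF4 targets thus moved in the direction of VEGFA, DDIT4 and STC2, and their part in these values was not tested.

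In TFAP2C KD, 2 of 32 further HIF targets passed the test, both higher, where 0.74% of all genes passed it in either direction. The median log2 fold change of the 32 was 0.048. ADM, the vasodilator peptide adrenomedullin, rose from 38.1 and 38.7 to 53.2 and 60.3 CPM (adjusted p = 0.0113), a call lost without control siRNA replicate 1. With Dox, ADM fell from 44.5 and 44.0 to 36.9 and 29.3 CPM (adjusted p = 0.000611). Of 12 ATF4 targets, 0 were called in TFAP2C KD by edgeR's quasi-likelihood test, and the median was -0.073. In that test 1 of these targets had an unadjusted p under 0.05, as had 1889 of all 14991 genes.

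**Figure D4:**
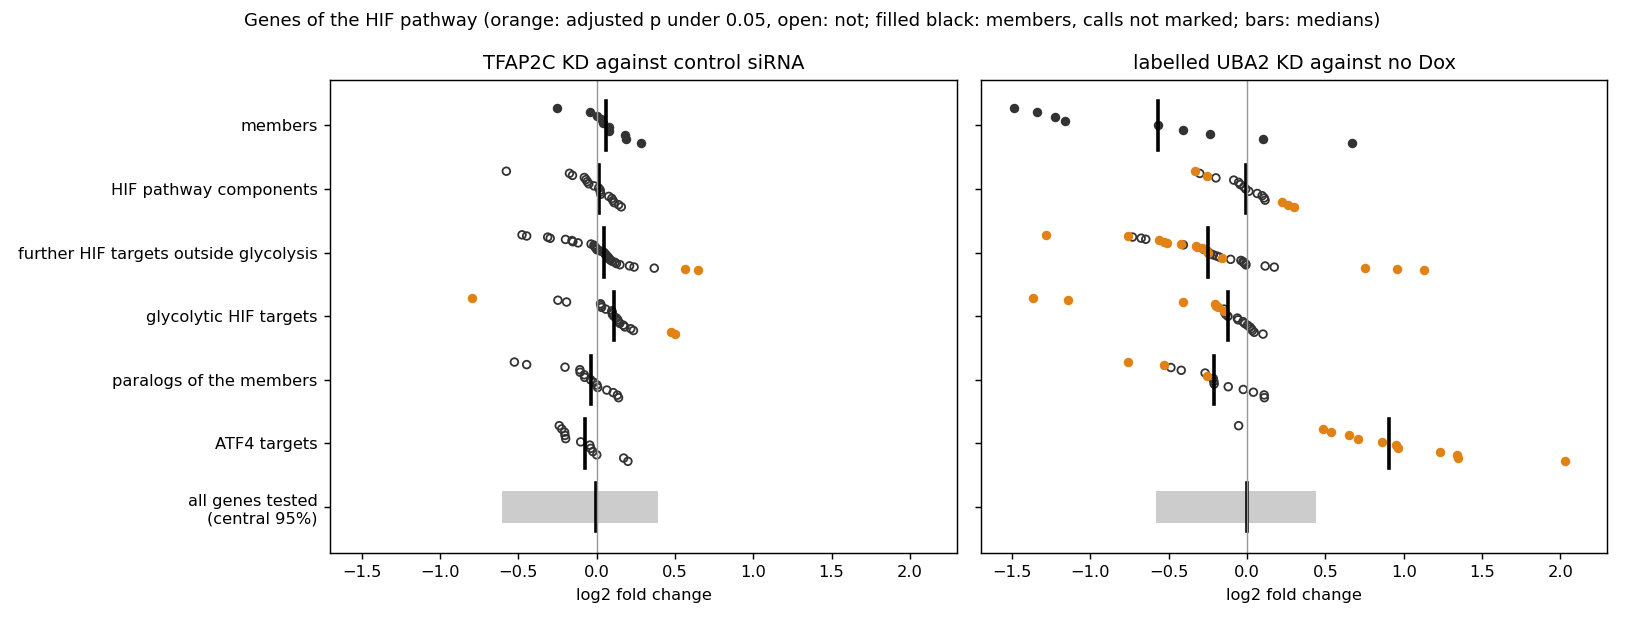
Log2 fold changes of the members and of each list with a point per gene, called genes outside the members in orange and a bar for the median, for TFAP2C KD and for the libraries labelled UBA2 KD. Members are filled black with no call marked, and the grey bar spans the central 95% of all genes tested. In TFAP2C KD the medians lie between -0.073 and 0.11, with 18 of 21 glycolytic targets above 0 and 9 of 12 ATF4 targets below 0. With Dox the median is -0.25 for the further HIF targets and 0.91 for the ATF4 targets.

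Among 17 paralogs of the members, 3 of the 14 tested with Dox passed the test, all lower, where 4.47% of all genes were called lower. The median log2 fold change of the 14 was -0.21. Those that fell were CA12, BNIP3L and EGLN1, which also stand in the lists above. KDM3B, the closest relative of KDM3A, was at 221 and 224 CPM without Dox and at 219 and 218 CPM with it (log2 fold change -0.025, adjusted p = 0.819). In TFAP2C KD, 0 of the 15 tested were called in edgeR's quasi-likelihood test, and 2 had an unadjusted p under 0.05, as had 1889 of all 14991 genes. Of 21 glycolytic HIF targets, 7 passed the test with Dox, all lower, where 4.47% of all genes were called lower. The median of the 21 was -0.12, and the lowest were ALDOC at -1.37 (adjusted p = 2.53e-12) and PFKFB4 at -1.15 (adjusted p = 1.43e-12). In TFAP2C KD, 2 of the glycolytic targets rose, HK2 and SLC2A1, and 1 fell. These calls were 14.3% of the list, where 0.74% of all genes were called. The calls of both that rose were lost without control siRNA replicate 1, and the call of the gene that fell was kept in every fit. The median log2 fold change of the list was 0.11, with 18 of the 21 above 0.

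The profiles of PPFIA4 and MIR210HG were set beside those of 12158 genes tested in both tables, as log2 CPM relative to the control mean of each table over the 8 libraries. Nearest to PPFIA4 by Euclidean distance were ALDOC, a glycolytic aldolase, at 0.341, SLC2A12, a sugar transporter, at 0.489, and MIR210HG at 0.575. The median distance of all genes from PPFIA4 was 2.02. Nearest to MIR210HG were PFKFB4, a regulator of glycolytic flux, at 0.252, EGLN3 at 0.265 and FAT4, a large cadherin, at 0.316, where the median of all genes was 1.67. The 8 libraries fall into 4 groups of 2, and PPFIA4 and MIR210HG were chosen on their values with Dox, so the distances are a description.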

How the data were processed

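mRNA-seq of 8 libraries in 4 groups of 2 was analysed, with groups taken from the labels. The authors aligned reads with TopHat2 to hg19 and counted them per gene with HTSeq 0.9.1, per the submitters' processing notes, and deposited raw counts without normalization in a table per experiment. The table of TFAP2C KD holds 42125 genes at GRCh38 positions, which differs from the methods, and the other 23393 at hg19 positions, so each table was analysed alone. The strand setting is not given in the sources used here. The members and lists were chosen with earlier results of these data known.

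Low genes were removed by filterByExpr (minimum count 10) in edgeR 4.0.16 under R 4.3.3, and groups were scaled by TMM and compared by the two-sided quasi-likelihood test, with Benjamini-Hochberg adjustment over all genes tested and a threshold of 0.05. CPM were computed on the TMM-scaled library size of the filtered genes, and RPKM divide CPM by the deposited gene length. CA9 with Dox was compared by an exact binomial interval on summed counts. Genes named are the 10 members, the targeted genes, HIF1A, EPAS1, ARNT, VHL, EGLN1, EGLN2 and HIF1AN, the 3 nearest profiles (pseudocount 0.5 CPM), and up to 5 called genes of each list with the largest change, groups that do not overlap and a mean log2 CPM of 1 or more. KDM3B, and ADM with Dox, are exceptions to the rule, chosen with their values known. The values of 1 gene that the rule names are not reported here. Alternatives were DESeq2 size factors, library size only, the Wald test of DESeq2 1.42.0, other filters, a replicate block, all 8 libraries in the same fit and each library left out. The code was tested on simulated data. Promoter and microRNA sequences are from RefSeq (GRCh38.p14), with no promoter entry used for NDRG1 and VEGFA.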

Additional observations from a re-analysis of the deposited data

How the results depend on the processing

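With 2 libraries per group, calls depend on single libraries, and leaving 1 out assumes that the lone library varies like the rest. Genes called in TFAP2C KD numbered 111, and 398 with no filter, 271 with all 8 libraries in the same fit, and 49 (without control siRNA replicate 1) to 2825 (without TFAP2C KD replicate 2) with a library left out. Without TFAP2C KD replicate 1 it was 537. Replicate numbers are not stated to pair samples, and the deviations of same-numbered libraries correlated at -0.184 in TFAP2C KD and 0.0158 with Dox. The replicate block gave 172 genes in TFAP2C KD, the crossed pairing, chosen after seeing the data, gave 467, and neither changed a call or direction of a member. With a library left out, 0 to 2 members and 1 to 6 further HIF targets were called in TFAP2C KD. Log2 fold changes of 7 members changed sign there. With library size only, P4HA1 was at -0.022 and MIR210HG at -0.00055, and P4HA1 was at -0.0043 with all 8 libraries. With a library left out, CA9 ran from -0.064 to 0.67, NDRG1 from -0.069 to 0.22, EGLN3 from -0.070 to 0.15, P4HA1 from -0.12 to 0.12, VEGFA from -0.11 to 0.013, KDM3A from -0.019 to 0.18 and MIR210HG from -0.075 to 0.13.

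With Dox, no fitted member changed direction under any alternative. Genes called, 1336 in all, numbered 665 in the Wald test of DESeq2, 696 with all 8 libraries and 833 to 1271 with a library left out. TMM gave 738 higher and 598 lower, and library size only gave 588 and 805. Further HIF targets called, 15 in all, numbered 9 in the Wald test and 11 to 17 with a library left out. The median of the members, -0.57, was -0.86 with no filter and -0.86 with all 8 libraries, and both of these settings add CA9. With a library left out the median ran from -0.67 to -0.46. Apart from what the settings themselves change, the cause of these shifts was not tested. Depth limits CA9, at 14 counts in both libraries without Dox together.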
